A study of Homo sapiens with 18 samples.

Results

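PCGF6-KO clone 2 was compared with wild-type (WT) cells across all genes by RNA-seq. The cells were PGP1, an established human induced pluripotent stem cell (iPSC) line, kept undifferentiated in mTeSR1 medium on Matrigel without any further treatment. Of the 18 libraries of the series, 4 made up this comparison, 2 of PCGF6-KO clone 2, called KO2 here, and 2 of WT. A further 2 libraries of PCGF6-KO clone 1, called KO1, were used to tell which changes were seen in clone 2 and not in clone 1. Both knockout lines were made with CRISPR-Cas9 and a pair of gRNAs that delete part of the first exon of PCGF6 on both alleles, and each was grown from a single sorted cell. A difference between clone 2 and WT therefore cannot be told apart from what that single cell already carried or gained. The sources do not say whether the 2 libraries of a group came from separate cultures, so the p-values measure the spread between these libraries, which may be technical. Of 57133 genes in the count table, 17672 had enough reads to be tested.

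PCGF6 is the subunit that defines PRC1.6, a variant Polycomb repressive complex 1. The complex holds the ubiquitin ligases RING1 and RNF2, which mark histone H2A, together with the DNA-binding partners MGA, MAX and E2F6 and the reader L3MBTL2. In pluripotent stem cells PRC1.6 is known for keeping germ cell and developmental genes silent. The comparison asks which genes change when PCGF6 is removed from human PSCs.

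The 4 libraries held between 15877396 and 18807617 counts, and those of KO1 held 17926450 and 18918609. The median gene differed 1.07-fold between the WT replicates and 1.08-fold between those of KO2. PCGF6 showed 268 and 300 counts in WT, 99 and 103 in KO1 and 187 and 159 in KO2. The fitted change in KO2 was −0.77 ± 0.13 (log2, standard error) with an adjusted p of 1.2e-05. In KO1 it was −1.67, and KO2 lay above KO1 by 0.90 (adjusted p = 5.4e-05). These reads are summed over all exons, so they do not check the deletion in the first exon. POU5F1, the gene of the pluripotency factor OCT4, showed 24295 and 25011 counts in WT and 27299 and 22722 in KO2, and TDGF1 and LIN28A showed at least 8578 counts in every library. Here and below, log2 fold changes and adjusted p-values come from the quasi-likelihood test of edgeR over all tested genes. Levels are counts scaled to library size (CPM) after TMM scaling, given as mean ± SD with n = 2 libraries. A gene was called when its adjusted p was under 0.05 and its absolute log2 fold change over 0.6.

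Of the 17672 tested genes, 5197 (29.4%) were called, 2983 higher (16.9%) and 2214 lower (12.5%) in KO2. The higher genes had a median log2 fold change of 1.64 and the lower genes of −1.16. An absolute log2 fold change over 2 was reached by 1237 higher and 403 lower genes. Of the higher genes, 444 had no more than 3 counts in either WT library, and of the lower genes 81 had at most 3 counts in each KO2 library. The median over all tested genes was 0.00, and the medians of single chromosomes lay within 0.1 of 0.

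**Figure D1:**
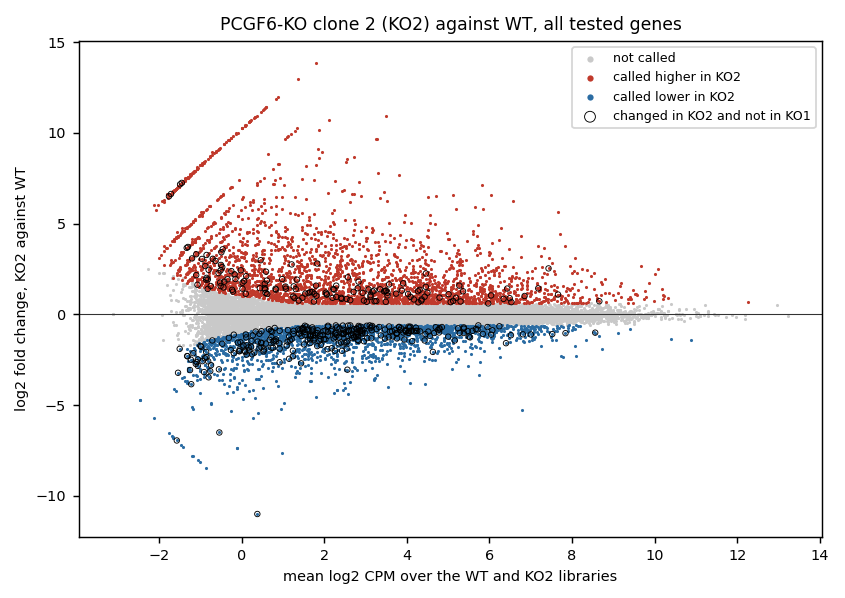
Log2 fold change of KO2 against WT (vertical axis) by mean log2 CPM over the 4 libraries (horizontal axis), with 1 point per tested gene outside chromosome Y. Red points are genes called higher, blue points genes called lower, grey points genes not called, and black circles the genes changed in KO2 and not in KO1. Many of the largest increases lie on diagonal lines, where WT had 0, 1 or 2 counts, but not all, as COL3A1 had 6 and 1.

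Among called genes with a mean log2 CPM of at least 1, the largest increases were of genes near 0 in WT. HAND1, a transcription factor of lateral and cardiac mesoderm, was at 0 in WT and at 2012 and 1575 counts in KO2, at least 574-fold higher. EVX1, a homeobox gene of the posterior primitive streak, went from 0 and 0 to 1063 and 890 counts, at least 313-fold. COL3A1, a fibrillar collagen, showed 6 and 1 counts in WT and 7977 and 6886 in KO2 (log2 fold change 10.95, standard error 0.15). CRHBP, which binds the stress hormone CRH, showed 1 and 0 counts in WT and 882 and 678 in KO2, a ratio of 1500 with a 95% counting interval from 270 to 59500. In KO1 CRHBP had 112 and 112 counts, and KO2 exceeded KO1 by 2.92 on the log2 scale (adjusted p = 3.5e-15). CDX2, HOXB9, RSPO3, PITX1 and NPPB were also among the 10 largest increases above that level, with at most 1 count in any WT library and between 448 and 1481 counts in each KO2 library. In each of these genes the KO2 libraries were high and the WT libraries near 0.

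Above the same level, SFRP1 and SYP fell furthest, while some genes of lower level, such as ZFP42 and ZNF788P, fell further. SFRP1, a secreted WNT inhibitor, showed 10494 and 12156 counts in WT and 307 and 297 in KO2 (log2 fold change −5.28, standard error 0.09). SYP, which encodes the synaptic vesicle protein synaptophysin, fell from 155 and 165 counts to 7 and 4. HESX1, a homeobox repressor of the anterior neural plate, fell from 238 and 288 counts to 15 and 8. CACNA1A, the pore subunit of a neuronal calcium channel, showed 450 and 407 counts in WT, 122 and 99 in KO1 and 22 and 20 in KO2. Its log2 fold change was −4.40 in KO2 and −2.13 in KO1, and the clones differed by −2.26 (adjusted p = 2.4e-08). PRKCB, a protein kinase C gene, and NOVA2, a neuronal splicing factor, were likewise lower in KO2 than in KO1, by −2.24 and −1.71 on the log2 scale. TMEM151B, GRIA4, RASGRP2 and LINC02570 were the others of the 10 above that level, with log2 fold changes from −4.17 to −4.08. Comparisons of KO2 with WT and of KO1 with WT share the WT libraries, so their values are given side by side only.

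Lists of marker genes were read against the shares of all tested genes, 16.9% higher and 12.5% lower. In these bulk libraries a change in the share of cells of a type cannot be told apart from a change in RNA per cell. Of 18 primitive streak genes tested of 20 listed, 17 rose and 0 fell, with a median log2 fold change of 6.06 in KO2 and 5.95 in KO1. MIXL1, a homeobox gene of the streak, rose from 70 and 46 counts to 5918 and 5494 (log2 fold change 6.57). APLNR, the receptor of ELABELA and apelin, rose from 10 and 10 to 2603 and 2082 counts. FOXH1, the SMAD partner of NODAL signalling, had a log2 fold change of 0.21 and was not called. The summed level of the list was 162 and 158 CPM in WT and 1935 and 1892 CPM in KO2. In this list 5 of the tested genes had no more than 3 counts in either WT library. Such genes entered the test through the knockout libraries and had to come out higher.

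Mesoderm genes were mostly higher as well. Of 27 cardiac and lateral mesoderm genes, 26 rose and 0 fell, with a median log2 fold change of 5.75. In that list 14 genes had no more than 3 counts in either WT library. ACTC1, cardiac actin, rose from 472 and 477 counts to 26699 and 22177 (log2 fold change 5.63). TBX5 had a log2 fold change of 1.49 and was the gene not called. Of 19 presomitic mesoderm and somite genes tested of 22 listed, 15 rose and 2 fell, with a median of 2.21, and 7 of the 19 were near 0 in WT in the same sense. MSGN1, a master gene of presomitic mesoderm, went from 0 and 0 to 155 and 93 counts, at least 39.4-fold, while RIPPLY2, a repressor at forming somite borders, fell from 15 and 12 to 2 and 0. Of 15 definitive endoderm genes tested of 18 listed, 9 rose and 3 fell, and 3 of the 15 were near 0 in WT. The endoderm median turned from 2.50 to −0.10 with at least 10 counts required in every library. GATA4 showed 5 and 0 counts in WT and 1146 and 955 in KO2 (log2 fold change 8.59), CXCR4 rose from 21 and 20 to 313 and 286, and FOXA3 fell from 465 and 372 to 231 and 217. The 3 that fell were FOXA3, KIT and LEFTY1.

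Homeobox genes of the trunk and tail were the list with the highest median. Of 42 CDX and HOX genes, 36 were tested and 36 were higher in KO2, with a median log2 fold change of 9.59 in KO2 and 8.60 in KO1. Of the 36, 34 had no more than 3 counts in either WT library, so that count carries no weight of its own. Both medians, and the rank of the list, likewise depend on the prior count of the fit. The summed level of the list was 2.58 and 2.64 CPM in WT, 346 and 348 CPM in KO1, and 522 and 487 CPM in KO2. HOXC10 had 0 counts in WT, 122 and 78 in KO1 and 364 and 306 in KO2, at least 108-fold above WT, and the clones differed by 1.87 on the log2 scale (adjusted p = 3.4e-09). HOXB2 had 0 counts in WT, 376 and 376 in KO1 and 344 and 274 in KO2, and KO2 minus KO1 missed the threshold (−0.16, adjusted p = 0.36). HOX genes overlap each other and antisense genes, so their reads can be shared.

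Genes of extraembryonic and mesenchymal cells rose as well. Of 20 amnion, trophoblast and surface ectoderm genes tested of 28 listed, 17 rose and 1 fell. In that list 2 genes had no more than 3 counts in either WT library. GATA3 rose from 15 and 11 counts to 468 and 386, and GATA2 from 7 and 9 to 254 and 253, while the amnion gene GABRP had a log2 fold change of −0.13 and KRT14 was at 0 in these libraries. The list's summed level was 1027 and 933 CPM in WT and 4443 and 4082 CPM in KO2. Of 30 genes of the epithelial to mesenchymal change, 22 rose and 2 fell, with a median of 2.11. VIM, the filament protein vimentin, rose from 750 and 879 counts to 8827 and 7056, and ZEB2, a repressor of epithelial genes, from 3 and 8 to 1005 and 869. The epithelial genes CDH1 and EPCAM had log2 fold changes of 0.12 and −0.12 and were not called. Of 13 fibroblast markers tested of 14 listed, 11 rose and THY1 fell from 10103 and 10096 counts to 4934 and 4146. Among the 13, 2 had no more than 3 counts in either WT library. FAP showed 0 and 0 counts in WT and 3 and 2 in KO2. The summed level of the fibroblast list was 1132 and 1126 CPM in WT and 3040 and 2889 CPM in KO2, and its part in the other changes was not tested.

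Blood vessel and blood genes were mixed. Of 17 tested of 23 listed, 7 rose and 3 fell, against 16.9% and 12.5% of all genes. Among the 17, 2 had no more than 3 counts in either WT library. FLI1 rose from 9 and 10 counts to 149 and 111 and RUNX1 from 18 and 16 to 244 and 240, while ERG fell from 156 and 142 to 42 and 23 and TIE1 from 63 and 51 to 16 and 9. The hemoglobin genes HBE1 and HBZ were at 0 in every library. LMO2, a cofactor of the blood stem cell program, showed 19 and 9 counts in WT, 30 and 22 in KO1 and 110 and 87 in KO2. It was called in KO2 (log2 fold change 2.75) and not in KO1, where the value was 0.71 but the adjusted p 0.13. The clones differed by 2.04.

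**Figure D2:**
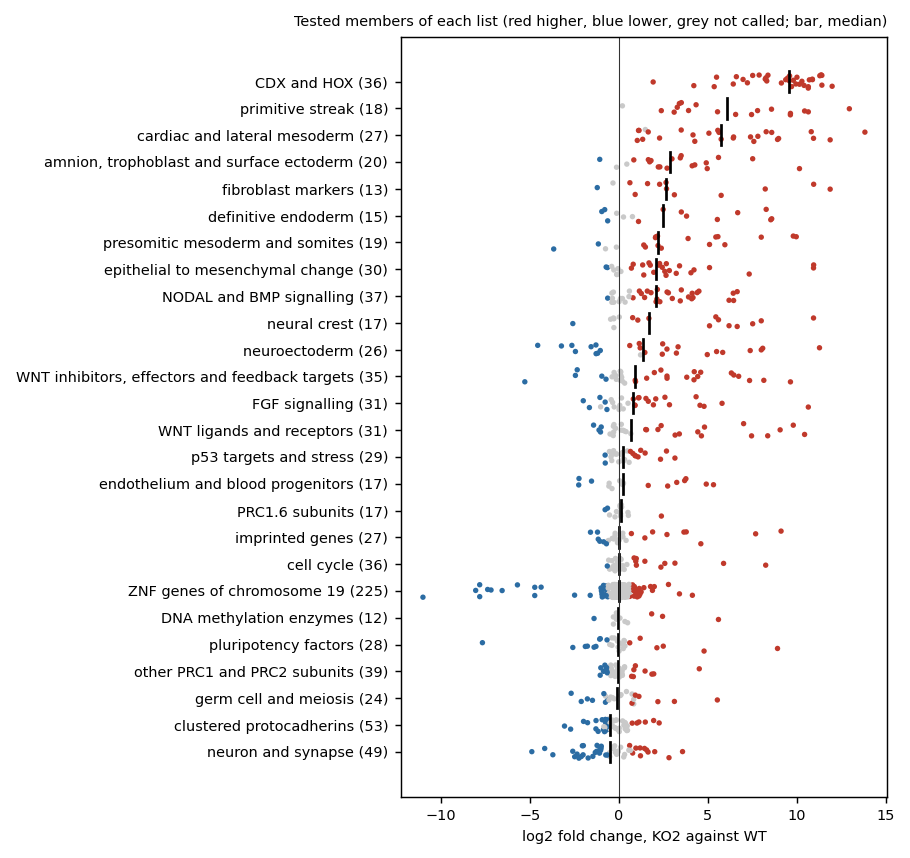
Log2 fold change of KO2 against WT for the tested members of each gene list (horizontal axis), with 1 point per gene, the number tested in brackets and a black bar at the median. The medians run from 9.59 for CDX and HOX genes and 6.06 for primitive streak genes down to −0.51 for neuron and synapse genes.

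Of the signalling lists, NODAL and BMP genes had the highest median, above 2 in KO2 and 1.45 in KO1. Of 37 genes tested of 39 listed, 25 rose and 1, LEFTY1, fell. Among ligands, NODAL rose from 285 and 277 counts to 4764 and 4077 (log2 fold change 3.92), BMP4 from 118 and 134 to 2589 and 2132 (4.17) and BMP2 from 58 and 65 to 1144 and 1043 (4.10). Of the receptors, BMPR2 rose (1.27), while ACVR1B, ACVR2A and ACVR2B had values from −0.39 to −0.28 and were not called. Among the inhibitors, FST rose from 163 and 185 to 3947 and 3684 counts and GREM1 from 17 and 17 to 1546 and 1514. The BMP targets ID1, ID2, ID3 and ID4 had log2 fold changes of 2.31, 3.46, 1.81 and 4.13, and ID4 showed 78 and 55 counts in WT against 1242 and 1166 in KO2.

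Of 31 WNT ligands and receptors tested of 40 listed, 15 rose and 4 fell, against 16.9% and 12.5% of all tested genes. In this list 5 genes had no more than 3 counts in either WT library and entered the test through the knockout libraries. The ligand WNT5A rose from 66 and 82 counts to 2114 and 1738, and LGR5, a receptor of R-spondins, from 1 and 0 to 95 and 71. FZD7, a frizzled receptor of pluripotent cells, showed 3099 and 3093 counts in WT, 2760 and 2776 in KO1 and 1608 and 1372 in KO2. It fell in KO2 (log2 fold change −1.11, standard error 0.06) and differed between the clones (−0.77). In KO1 it was lower too, but under the threshold of size (−0.34, adjusted p = 5.7e-05). WNT16 rose in KO2 and not in KO1, from 6 and 5 counts to 15 and 19. Of 35 WNT inhibitors, effectors and feedback targets, 18 rose and 5 fell, and 3 had no more than 3 counts in either WT library. NKD1, a feedback inhibitor, rose from 206 and 256 counts to 3628 and 3148, and TCF7L1, a repressor of WNT targets in pluripotent cells, fell from 8072 and 8343 to 1804 and 1572 (−2.33, against −1.56 in KO1). Of 31 FGF genes tested of 35 listed, 16 rose and 5 fell, and 2 had no more than 3 counts in either WT library. The ligand FGF8 rose from 46 and 40 to 1000 and 820 counts, and DUSP6, a feedback phosphatase of ERK, fell from 1650 and 1657 to 884 and 763.

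Pluripotency genes went in both directions. Of 28 tested of 30 listed, 6 rose, 9 fell and 13 were not called, with a median of −0.05. Over all tested genes 16.9% rose and 12.5% fell. SOX2, a core pluripotency factor that overlaps SOX2-OT, showed 5321 and 5460 counts in WT, 4711 and 4461 in KO1 and 2777 and 2658 in KO2. Its level was 327 ± 0.291 CPM in WT and 159 ± 8.84 CPM in KO2, or −1.04 ± 0.06 as log2 fold change and standard error (adjusted p = 4.7e-14). In KO1 it was −0.41, under the threshold of size, and the clones differed by −0.63 (adjusted p = 1.3e-08). POU5F1 (−0.03) and NANOG (0.35) were not called. ZFP42, a marker of undifferentiated cells, showed 304 and 329 counts in WT and 2 and 1 in KO2, a ratio of 219 with a 95% counting interval from 74.5 to 1060. FOXD3, a forkhead factor, fell by 2.58 on the log2 scale. PRDM14, a repressor of differentiation, fell from 2346 and 2355 counts to 674 and 649 (−1.88), and DPPA2 rose from 120 and 123 to 760 and 668 (2.50, against 1.17 in KO1). The methyltransferase gene DNMT3B fell from 48123 and 51479 counts to 20832 and 18592.

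Of 17 PRC1.6 genes, PCGF6 included, 1 rose, 2 fell and 14 were not called, with a median of 0.10, where 29.4% of all tested genes were called. YAF2, which can take the place of RYBP, rose from 31 and 23 counts to 145 and 150 (log2 fold change 2.40), and the 2 lower genes were PCGF6 and TFDP2 (−0.63, or −0.60 without WT replicate 2 and −0.56 without KO2 replicate 1, where it was not called). MGA, MAX, L3MBTL2 and RNF2 had values between 0.07 and 0.15. Of 39 other PRC1 and PRC2 genes, 8 rose and 8 fell. BMI1 rose from 50 and 51 counts to 202 and 207, EPOP from 22 and 7 to 377 and 321, and CBX2 fell from 3083 and 3163 to 1670 and 1473.

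Many neuronal and synaptic genes were lower. Of 49 tested of 53 listed, 23 fell and 11 rose, with a median of −0.51, where 12.5% of all genes fell. NLGN3, a synaptic adhesion gene, fell by 2.48 on the log2 scale, SHANK2, a scaffold of the synapse, from 1449 and 1558 to 498 and 448, and NEFL, a neurofilament gene, rose from 291 and 298 to 1305 and 1173. GRIK5 and GRIK3, subunits of kainate receptors, were called in KO2, one lower and one higher, and KO2 differed from KO1 in each. GRIK5 fell from 1126 and 1140 counts to 501 and 506, with 939 and 791 in KO1 (−0.57 in KO1, just under the threshold of size). GRIK3 rose from 111 and 108 counts to 390 and 322, with 163 and 141 in KO1 (0.29). Of 26 neuroectoderm genes tested, 16 were higher and 9 lower, and 7 of the 26 had at most 3 counts per WT library, so they had to be higher. With at least 10 counts required in every library the list's median turned from 1.34 to −1.21. ZIC5 fell from 1391 and 1614 counts to 239 and 261, and GBX2 rose from 5 and 10 to 377 and 336. PAX6 was not called (1.22, adjusted p = 0.080), but without WT replicate 2 it was 2.61 and called. Of 17 neural crest genes tested, 11 rose and FOXD3 fell. In that list 4 genes had at most 3 counts per WT library, and its median turned from 1.69 to −0.11 with at least 10 counts required.

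Germ cell genes, known targets of PRC1.6, went in both directions. Of 24 tested of 51 listed, 6 rose, 7 fell and 11 were not called, with a median of −0.08. Among the 24, 2 had no more than 3 counts in either WT library. For this list and those that follow, the shares of all tested genes were 16.9% higher and 12.5% lower. DAZL fell from 94 and 111 counts to 14 and 19, and SYCP1 from 44 and 40 to 9 and 11, while PRDM1, which also marks endoderm, rose from 6 and 4 to 255 and 238. REC8, a meiotic cohesin gene, showed 427 and 458 counts in WT, 456 and 437 in KO1 and 785 and 749 in KO2, and was changed in KO2 and not in KO1. Of 27 imprinted genes tested, 9 rose and 6 fell, and 3 had no more than 3 counts in either WT library. IGF2 rose from 11 and 20 counts to 3462 and 3220. H19 showed 2 and 3 counts in WT, 118 and 802 in KO1 and 261 and 2630 in KO2, so its replicates lay far apart in both clones. Of 36 cell cycle genes, 10 rose, among them CCND1 from 1878 and 1945 counts to 10645 and 9796, and MCM5 fell. MKI67, a marker of dividing cells, had a log2 fold change of 0.08. Of 29 p53 and stress genes, 10 rose and 2 fell, and of 12 DNA methylation enzymes 3 rose and DNMT3B fell. Of 225 zinc finger genes of chromosome 19 tested, 25 rose and 26 fell, no larger shares than the 16.9% and 12.5% of all genes. Of 53 clustered protocadherins, 6 rose and 20 fell, against 16.9% and 12.5% of all genes, with medians of −0.49 in KO2 and −0.12 in KO1.

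A gene was counted as changed in KO2 and not in KO1 when it was called against WT in KO2, was not called in KO1, and KO2 against KO1 was itself called in the same direction. The rule lets in genes whose change in KO1 missed only the threshold of size or only that of adjusted p. By this rule 142 genes (0.804% of those tested) were higher and 285 (1.61%) lower. The higher genes had a median log2 fold change of 1.37 in KO2 and 0.25 in KO1, and the lower genes of −1.15 and −0.16. These counts depend on the settings. They were 88 and 192 with DESeq2, 89 and 147 with an absolute log2 fold change over 1, 65 and 158 when KO1 had to stay under 0.5 of the fold threshold, and 604 and 926 without the test between the clones. Of the 26 gene lists, germ cell genes held 2 of the higher genes, zinc finger genes of chromosome 19 held 6 of the lower and clustered protocadherins 3, and the others held at most 1 in each direction.

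LCP1 was among the 12 higher genes with the largest difference between the clones. It encodes L-plastin, an actin-bundling protein of blood cells and migrating cells. It showed 1130 and 1235 counts in WT, 1219 and 1213 in KO1, and 7243 and 6926 in KO2. Its level was 71.7 ± 3.26 CPM in WT and 416 ± 22.8 CPM in KO2, or 2.53 ± 0.07 as log2 fold change and standard error (adjusted p = 3.1e-21), and KO1 was not called (−0.14). LCP1 overlaps CPB2-AS1, an antisense gene. KCNK1, a potassium channel, showed 154 and 178 counts in WT, 181 and 194 in KO1 and 870 and 764 in KO2. ERMN, a cytoskeletal gene known from myelin, had 22 and 20, 25 and 18, and 166 and 140 counts in the same order. RNASE1, a secreted ribonuclease, had 54 and 71, 66 and 65, and 273 and 180. DNAJA4, PKHD1, LINC00504, WWC3, SLC35F3 and CYTL1 rose by 1.40 to 2.04 on the log2 scale. IKBKGP1, a pseudogene, showed 38 and 31 counts in WT and 49 and 117 in KO2, and without the library with 117 its log2 fold change was 0.37 and no longer called. Of genes with more counts, picked after their values were seen, BTF3, a ribosome-associated factor, rose from 5129 and 5273 counts to 9645 and 8137. It had 4750 and 4083 in KO1, lower than WT but under the threshold of size (−0.42, adjusted p = 1.7e-06). SGK1, a stress-regulated kinase, rose from 359 and 374 to 1167 and 1096, with 558 and 590 in KO1. In KO1 SGK1 rose too, under the threshold of size (0.47, adjusted p = 0.0002).

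Among the genes lower in KO2 and not in KO1, NLRP2, an imprinted gene of early development, showed 2404 and 2433 counts in WT, 2856 and 2529 in KO1, and 900 and 769 in KO2. Its log2 fold change was −1.59 (standard error 0.07) in KO2 and −0.02 in KO1. PCDHA6 and PCDHGA10, clustered protocadherins that tell neurons apart, fell by 2.70 and 3.05 on the log2 scale. In KO1 PCDHA6 was at 0.31, while PCDHGA10 was lower too, under the threshold of size (−0.49, adjusted p = 0.0021). Their exons lie within clusters that share 3′ exons, so reads may be split between members. NOS2, nitric oxide synthase, showed 84 and 79 counts in WT, 103 and 55 in KO1, and 18 and 16 in KO2. COL8A2, a network collagen, had 78 and 81, 46 and 78, and 15 and 15 counts in that order. MPZL2, HMCN2, SLC17A9, ADGRE2, CACNA1I and ADAMTS4 had log2 fold changes from −2.01 to −1.34. In each of them both KO2 libraries lay below all libraries of WT and KO1, which largely follows from how they were picked. With more counts, and picked after their values were seen, DDR1, a collagen receptor, fell from 4375 and 4437 counts to 2345 and 1945 and had 3713 and 3398 in KO1. DDR1 was thus lower in KO1 too, under the threshold of size (−0.49, adjusted p = 1.4e-07). FKBP5, a chaperone of steroid receptors, fell from 1513 and 1618 to 1104 and 952 and had 1882 and 1996 in KO1.

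**Figure D3:**
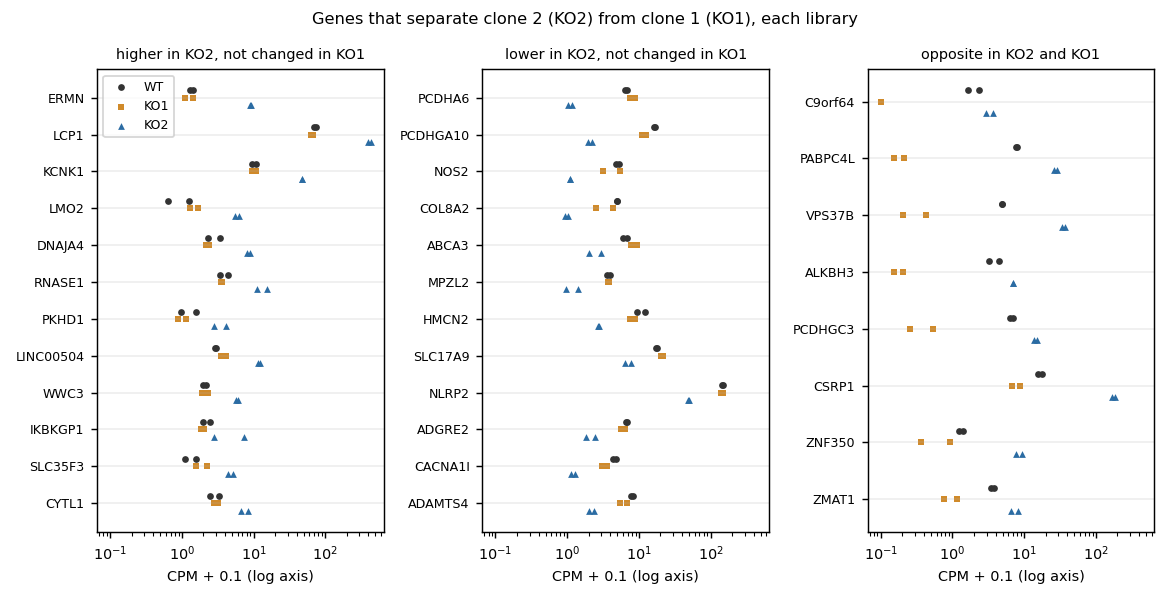
CPM + 0.1 on a log axis in each of the 6 libraries, for the 12 genes with the largest and the 12 with the most negative difference between KO2 and KO1 among those changed in KO2 alone, and for 8 genes called in opposite directions. In the left and middle panels the KO1 squares mostly lie near the WT circles, though LMO2 was 0.71 above WT in KO1 on the log2 scale. In the right panel WT lies between the clones, as the pick of these genes required.

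In opposite directions 34 genes were called, of which 33 lay outside chromosome Y, 15 higher and 18 lower in KO2. CSRP1, a LIM protein of smooth muscle and actin filaments, showed 255 and 299 counts in WT, 129 and 159 in KO1, and 3309 and 2732 in KO2. This was 16.8 ± 1.6 CPM in WT and 176 ± 8.64 CPM in KO2 (log2 fold change 3.39, standard error 0.09), and −1.12 in KO1. VPS37B, a subunit of the ESCRT sorting machinery, showed 79 and 81 counts in WT, 2 and 6 in KO1, and 619 and 588 in KO2. PABPC4L, a poly(A)-binding protein gene, had 129 and 127, 1 and 2, and 479 and 455 counts in the same order. ALKBH3, a demethylase that repairs alkylated DNA, showed 51 and 72 counts in WT, 2 and 1 in KO1, and 124 and 109 in KO2. ZNF350 rose from 21 and 19 counts to 140 and 148 in KO2 and had 5 and 15 in KO1. ZMAT1, PCDHGC3 and C9orf64 were higher than WT in KO2 by 1.06, 1.13 and 0.73 on the log2 scale, and C9orf64 was at 0 in both libraries of KO1. Without WT replicate 2 or KO2 replicate 1, C9orf64 was 0.48 or 0.55 and no longer called against WT. Of the 18 genes lower in KO2, 11 lay in a block of zinc finger genes on chromosome 19 that is described below.

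The genes lower in KO2 and not in KO1 were not spread evenly over the chromosomes. Chromosome 16 held 28 of them among 696 tested genes (4.02%) and chromosome 19 held 52 among 1102 (4.72%), where all tested genes gave 1.61%. After this was seen, neighbouring tested genes were searched for runs in which each gene was lower, or each higher, by over 0.5 on the log2 scale in KO2 than in both WT and KO1. Runs of at least 5 genes were found 9 times. These runs were found in the same values that they describe, and no test was made on them.

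The run with the most genes lay on chromosome 16, at chr16:2025356-2509560 of GRCh38, and held 18 consecutive tested genes from SLC9A3R2 to TBC1D24 over 484205 bases. Their median log2 fold change was −1.06 in KO2, which is 47.9% of the WT level, and 0.06 in KO1. Between the clones it was −1.03. The run was picked for genes lower in KO2 by over 0.5, so the following counts largely follow from that pick. In 18 of 18 genes both KO2 libraries lay below both WT libraries and below both KO1 libraries. Against WT, 16 of the 18 were called lower, and 14 were changed in KO2 and not in KO1. Over all tested genes 12.5% were lower, a share that such a picked set cannot be weighed against. The 18 genes summed to 1238 and 1219 CPM in WT, 1283 and 1153 CPM in KO1, and 625 and 585 CPM in KO2.

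The run holds genes of differing functions. RNPS1, an activator of splicing, showed 8815 and 8812 counts in WT, 10976 and 9094 in KO1, and 5014 and 4093 in KO2 (log2 fold change −1.01, standard error 0.06). TSC2, which encodes tuberin and restrains mTOR signalling, had 2194 and 2309, 2989 and 2523, and 1157 and 956 counts in that order (−1.15, standard error 0.07). MLST8, a subunit of the mTOR complexes, had 1139 and 1232, 1197 and 989, and 565 and 454 (−1.27, standard error 0.09). TRAF7, a ubiquitin ligase, had 2781 and 2642, 2661 and 2401, and 1394 and 1221 (−1.10, standard error 0.07). In each of these genes the KO2 libraries stood apart from the other 4. PKD1, which encodes polycystin and overlaps TSC2, had a log2 fold change of −0.79, CCNF, which encodes cyclin F, of −0.70, NTHL1, a DNA repair glycosylase, of −1.39 and TEDC2, which acts on tubulin, of −1.48. SLC9A3R2, PGP, E4F1, ECI1, ABCA3 and RAB26 lay between −1.38 and −0.71. TBC1D24 and BRICD5, both at −0.54, were under the threshold of size. CASKIN1, a neuronal scaffold that overlaps TRAF7, was called lower in both clones (−2.37 in KO2, −0.83 in KO1), as was SNHG19 (−1.30 and −0.67). BRICD5 was called higher in KO1 (0.75). With an adjusted p under 0.05 but under the threshold of size, TRAF7, MLST8, NTHL1 and TEDC2 were lower in KO1 (−0.37 to −0.28). In the same sense E4F1, TBC1D24, ABCA3 and CCNF were higher in KO1 (0.18 to 0.44).

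The edges of the run were sharp. On its left, ZNF598 showed 1350 and 1266 counts in WT and 1416 and 1136 in KO2 (log2 fold change −0.09), and NPW −0.19. On its right, ATP6V0C showed 258 and 292 counts in WT and 296 and 279 in KO2 (0.01), AMDHD2 −0.25 and PDPK1 0.02. Over the 69 other tested genes within 1000000 bases of the run, the median log2 fold change was −0.07 in KO2, and 1 of them was changed in KO2 and not in KO1. The genes of the run had a median GC content of 62.5% and those beside it of 60.3%. With a correction for GC content, chosen after the data were seen, the median of the run was −1.0. DNA copy number was not measured in these libraries, and its part in this result was not tested.

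**Figure D4:**
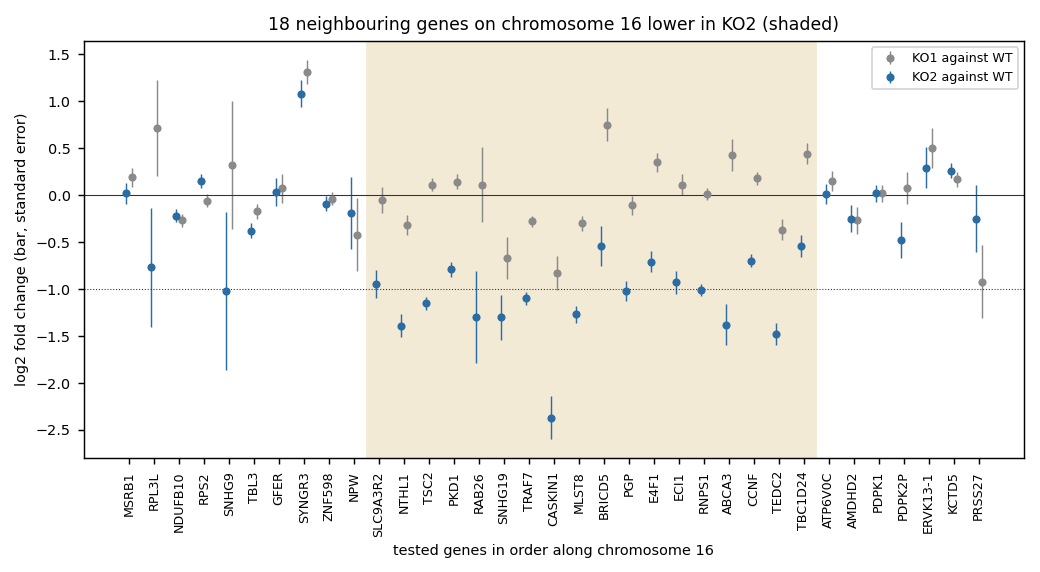
Log2 fold change against WT (vertical axis, bars are standard errors) of KO2 (blue) and KO1 (grey) for tested genes in their order along chromosome 16, with the run of 18 genes shaded and a dotted line at −1. Inside the shading the blue points lie from −2.37 to −0.54, below the grey point of the same gene each time, as the rule of the run required.

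The run with the next most genes, 13 over 551633 bases, lay among zinc finger genes of chromosome 19. Only 2 of its 13 genes were among the 52 of this chromosome that were lower in KO2 and not in KO1. Of the 13, 10 were called in KO1 against WT. Over chr19:11721265-12365905, 17 genes had at least 20 counts over the 6 libraries, and 16 of them had at most 3 counts in each KO2 library. These 16 summed to 560 and 578 counts in WT, 1660 and 1559 in KO1, and 7 and 6 in KO2. They were picked by their low KO2 counts, so being lower in KO2 largely follows from the pick. Of 14 of them tested, 13 were called lower in KO2 and 12 higher in KO1. Over all 17672 tested genes, 2214 were lower in KO2 and 2823 higher in KO1. Some of the 16 were near 0 in WT too, such as ZNF441 (0 and 0 counts), ZNF433 (2 and 4) and ZNF563 (4 and 2). ZNF788P showed 246 and 239 counts in WT, 253 and 291 in KO1 and 0 and 0 in KO2, at least 83.5-fold lower. ZNF844 had 97 and 101, 181 and 175, and 1 and 0 counts, a ratio to WT of 205 with a 95% counting interval from 36.4 to 8150. ZNF440 showed 19 and 34 counts in WT, 202 and 196 in KO1 and 0 and 0 in KO2, at least 9.09-fold below WT. The exception in the block was ZNF136, with 131 and 164, 178 and 157, and 82 and 93 counts. Zinc finger genes resemble each other, and how reads that match several of them were counted is not given in the sources used here.

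Beyond the silent genes, further genes on the right were lower without being silent. ZNF443 had a log2 fold change of −0.97, ZNF791 of −1.0 and MAN2B1, a lysosomal mannosidase, of −0.81, and the values in KO1 were 0.46, −0.08 and 0.22. ZNF791 showed 599 and 675 counts in WT and 320 and 339 in KO2. ZNF799 (−0.27) and the pseudogene RPL10P16 (0.28), which lie among them, were not called, and WDR83 (−0.12) followed. Next to it DHPS, which overlaps WDR83, was called lower (−0.65, adjusted p = 0.022), then FBXW9 (0.33) and TNPO2 (−0.03) were not. On the left the block was bounded by HNRNPA1P10 (0.33).

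**Figure D5:**
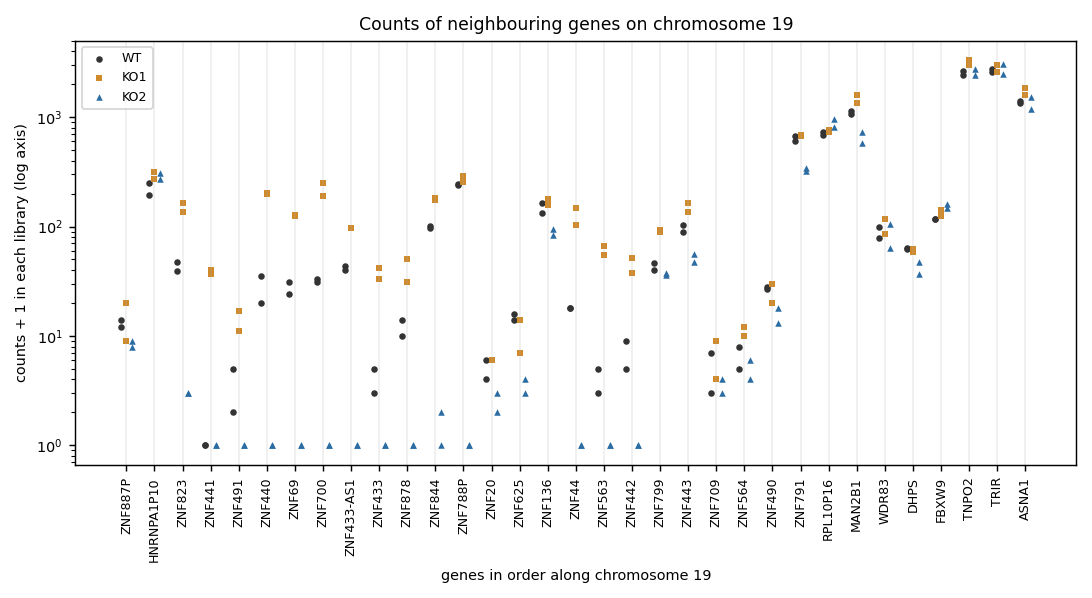
Counts + 1 on a log axis in each library of WT (circles), KO1 (squares) and KO2 (triangles), for genes in their order along chromosome 19. From ZNF823 to ZNF442 the triangles lie at or near 0 counts, except for ZNF136 at 82 and 93, while the squares lie above the circles for most genes.

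Promoters of genes in this block, from the RefSeq promoter table of GRCh38.p14, are shown because neighbouring genes differed in KO2. Each runs from 250 bases before the annotated start to 50 after it, 5′ to 3′, and capitals mark CG, the site of DNA methylation. ZNF440 (chr19:11814023-11814322, forward strand) and ZNF844 (chr19:12064481-12064780, forward strand) were silent in KO2. ZNF136 (chr19:12162846-12163145, forward strand) was lower but not silent. LCP1 (chr13:46182128-46182427, reverse strand) is set beside them as the gene that rose in KO2 and not in KO1.
ZNF440: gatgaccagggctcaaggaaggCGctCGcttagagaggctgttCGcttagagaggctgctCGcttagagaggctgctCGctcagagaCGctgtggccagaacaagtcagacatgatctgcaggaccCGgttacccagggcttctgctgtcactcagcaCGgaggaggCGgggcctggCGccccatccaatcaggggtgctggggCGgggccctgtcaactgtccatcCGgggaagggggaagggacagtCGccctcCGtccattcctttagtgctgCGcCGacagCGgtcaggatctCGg
ZNF844: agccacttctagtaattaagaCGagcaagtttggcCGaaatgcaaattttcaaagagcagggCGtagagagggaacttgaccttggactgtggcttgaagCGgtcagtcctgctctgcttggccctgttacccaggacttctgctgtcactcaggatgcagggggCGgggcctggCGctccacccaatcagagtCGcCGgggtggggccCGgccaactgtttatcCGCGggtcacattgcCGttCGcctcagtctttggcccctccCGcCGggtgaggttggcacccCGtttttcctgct
ZNF136: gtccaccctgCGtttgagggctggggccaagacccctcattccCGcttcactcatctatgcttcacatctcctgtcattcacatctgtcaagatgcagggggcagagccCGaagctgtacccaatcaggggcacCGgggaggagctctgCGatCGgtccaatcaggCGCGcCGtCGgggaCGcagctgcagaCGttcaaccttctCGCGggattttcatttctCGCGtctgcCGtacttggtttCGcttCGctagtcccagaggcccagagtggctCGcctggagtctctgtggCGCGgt
LCP1: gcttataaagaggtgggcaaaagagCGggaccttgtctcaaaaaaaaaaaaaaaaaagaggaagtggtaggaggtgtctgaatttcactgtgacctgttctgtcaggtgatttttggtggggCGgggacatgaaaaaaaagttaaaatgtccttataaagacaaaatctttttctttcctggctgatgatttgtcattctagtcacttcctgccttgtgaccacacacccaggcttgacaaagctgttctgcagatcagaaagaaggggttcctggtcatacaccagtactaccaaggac

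These windows held 18 CG in ZNF440, 16 in ZNF844, 22 in ZNF136 and 2 in LCP1. Over 27305 RefSeq promoters of the same length, 1 per symbol, the median was 14 and 95.8% held at least 1. In and to the right of the block, promoters of 16 genes with at most 3 counts in each KO2 library held 8 to 27 CG (median 15.0), and those of 9 genes with over 3 counts held 13 to 28 (median 20.0). The ranges overlapped. These 16 are not the 16 genes of the block. They leave out ZNF788P and include ZNF709, to the right of the block, with 6 and 2 counts in WT. ZNF709 held the 27 CG, and the next highest was ZNF433 with 22. DNA methylation was not measured in these libraries.

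Motifs of the DNA-binding partners of PRC1.6 were counted in the same windows on both strands. CACGTG, the E-box bound by MAX dimers, was in 7.43% of all promoters, 9.74% of those of 11936 tested genes that matched by symbol, 8.36% of those of genes higher in KO2 and 8.59% of those of lower genes. GCGGGAA, an E2F site, was in 6.56%, 9.90%, 7.21% and 8.25% in the same order. TATAAA, the TATA box, was in 12%, 6.18%, 10.8% and 6.22%. A match says only that the letters occur in the window.

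Other runs were shorter. On chromosome 19 the 6 tested genes from KLK1 to KLK13, kallikrein proteases, had a median log2 fold change of −1.80 in KO2 and −0.57 in KO1. KLK6 fell from 16 and 16 counts to 6 and 5 in KO2 and had 52 and 32 in KO1. On chromosome 6 the 5 genes from TAP2 to HLA-DMA, which act in antigen processing, had −1.85 and −0.88. On chromosome 12 the 5 genes from CLEC1B to GABARAPL1 were higher, with medians of 6.95 and 4.95. GABARAPL1, an autophagy gene, showed 843 and 896 counts in WT, 1484 and 1451 in KO1, and 2496 and 2326 in KO2. A further 3 runs were of HOX genes. They held 12 genes from HOXB3 to HOXB13, 6 from HOTAIR to HOXC9 and 6 from HOXA9 to HOXA13, with median differences between the clones of 0.88, 1.65 and 0.95 on the log2 scale.

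GC content moved with the decreases. Among 15917 tested genes with an annotated position the median GC content was 48.9%, against 49.2% for the genes higher in KO2, 54.0% for the lower genes, and 57.0% for the genes lower in KO2 and not in KO1. With the genes split into 4 near-equal parts by GC content, 7.94% of the part with the lowest GC were lower in KO2, and 20.3% of the part with the highest, from 56.7 to 76.9%. That last part held 137 of the 267 genes lower in KO2 and not in KO1 that had a value. With the correction for GC content, 282 genes were lower in KO2 and not in KO1, of which 263 were among the 285. What GC content contributes to these counts was not tested further.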

How the data were processed

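RNA-seq was performed on total RNA of PGP1 cells. Per the labels and methods of the study, the authors trimmed reads with Trim Galore 0.6.2, aligned them to GRCh38 with HISAT2 2.1.0 and counted reads per gene with featureCounts, and the deposited table holds raw counts. The strand setting, the annotation release and the handling of reads with several matches are not given in the sources used here. The other 12 libraries of the series were not used here.

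Counts of the 6 libraries of WT, clone 1 and clone 2 were fitted together with edgeR 4.0.16 (R 4.3.3, TMM scaling, quasi-likelihood test, Benjamini-Hochberg adjustment over 17672 genes kept by filterByExpr). Fold changes against 0 counts are bounds set at 3 counts per library, and against 1 to 3 counts are ratios with exact 95% intervals, which cover counting error only. Positions, overlaps and GC content came from GENCODE 44 on GRCh38, matched by symbol for 15917 of the tested genes (90.1%). Scripts were tested on simulated data.

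The genes and lists were chosen with earlier results of these data known. Named genes were PCGF6, the genes the study measured by qRT-PCR and MYC, then the 10 highest and 10 lowest called, 12 and 12 changed in clone 2 and not in clone 1 by the difference between the clones, up to 8 called in opposite directions, up to 5 called members and the defining uncalled members of each list, and up to 20 silent in 1 group, ranked genes needing a mean log2 CPM of 1 or more. Genes of the runs along chromosomes, and others said to be so, were chosen after their values were seen. Genes of chromosome Y and XIST are not named, and a few genes the rule covers are not reported here. Alternatives covered scaling, filtering, thresholds, DESeq2 1.42.0, the replicate number as a block, each library left out and, added after the data were seen, a correction for GC content.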

Additional observations from a re-analysis of the deposited data

Results flagged for a closer look

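The 2 clones differed, by the test of clone 2 against clone 1 itself, in 142 genes higher and 285 genes lower in clone 2 that were not called in clone 1. Against WT, 34 genes were called in opposite directions in the 2 clones. Among these, on the log2 scale, clone 2 minus clone 1 was 8.79 for C9orf64, 8.29 for PABPC4L, 7.32 for VPS37B, 6.28 for ALKBH3, 5.57 for PCDHGC3, 4.51 for CSRP1, 3.96 for ZNF350 and 3.09 for ZMAT1. It was −8.03 for ZNF844 and, for ZNF788P, which was not called in clone 1, −10.99. Where a group had 0 to 3 counts, as for C9orf64, PABPC4L, ALKBH3, ZNF844 and ZNF788P, these fitted values depend on the prior count. No group held enough libraries to look for a library far from the others.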

How the results depend on the processing

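The main counts were 2983 higher and 2214 lower genes, and 142 higher and 285 lower in clone 2 and not in clone 1. Calling by the adjusted p alone gave 4629, 4275, 395 and 499. An absolute log2 fold change over 1 gave 1356 lower genes and 89 and 147 in clone 2 and not in clone 1. That pair of counts was 604 and 926 without the test between the clones, and 65 and 158 when clone 1 had to stay under 0.5 of the fold threshold. The higher count of the pair was 91 with at least 10 counts required and 88 with DESeq2, and the causes of these shifts were not tested. With each library left out in turn, the 4 counts ranged from 2786 to 2997, 1983 to 2232, 114 to 168 and 222 to 294. POU5F1, not called, ranged from −0.079 to 0.010 with each library left out, above 0 without clone 2 replicate 2. Of 2241 values of 168 named genes under 14 alternatives, 2221 kept direction and call and 18 lost the call. With at least 10 counts required in every library, which drops genes near 0 in WT by construction, the medians of the endoderm, neuroectoderm and neural crest lists turned to −0.101, −1.212 and −0.105. The sources tie the replicate numbers to no shared batch. Pearson correlations between deviations of same-numbered libraries were 0.0366 (WT and clone 1), 0.06 (WT and clone 2) and 0.127 (clone 1 and clone 2). Spearman correlations were 0.115, 0.111 and 0.232 in the same order, and pairing was not established. Fitting the replicate number as a block gave 3001, 2232, 144 and 305. With 2 libraries per group, precision rests on the spread shared over genes.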
